A study of Mus musculus with 6 samples.

Results

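The Frizzled receptors and the Wnt co-receptors Lrp5 and Lrp6 are the cell-surface proteins through which cells sense Wnt ligands. They were followed here in mpkCCD clone 11 cells, a cloned, immortalised line of mouse kidney cells of cortical collecting duct origin. Members were selected by gene symbol: every probe set that the platform annotation assigns to Fzd1 to Fzd8, Lrp5 or Lrp6 alone was taken, which gave 18 probe sets for 10 genes of the 28225 probe sets and 12364 genes measured. The gene family itself was chosen from earlier results of the same dDAVP and vehicle arrays, so the values below describe these arrays and the p-values of the members are no independent evidence. The dDAVP group had 3 arrays of cells given 0.1 nM dDAVP (desmopressin, a synthetic vasopressin analog acting on the V2 receptor) for 5 days, and the vehicle group had 3 arrays of cells given vehicle alone for 5 days. Before that, all cells had been grown on membrane supports into polarized layers with a resistance of at least 5 kohm per cm2, and the labels call the arrays of a group biological replicates without saying whether they came from separate passages. The p-values therefore set each difference between the groups against the spread within the groups of these 6 samples, whatever that spread stands for. As a model, this is 1 clone grown alone, and in RNA pooled from a whole layer fewer cells of a type and less RNA per cell cannot be told apart.

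Frizzleds span the membrane repeatedly and bind the lipid-bearing Wnt protein through a cysteine-rich domain outside the cell. When a Wnt joins a Frizzled to Lrp5 or Lrp6, Dishevelled and Axin are drawn to the membrane, beta-catenin escapes destruction and acts with TCF/LEF factors in the nucleus. Frizzleds also signal without Lrp5/6, in planar cell polarity and calcium pathways. In the developing kidney, Wnt signals between the ureteric bud, which forms the collecting duct, and the neighbouring mesenchyme drive branching and nephron formation.

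Values are log2 signals, so a difference of 1 is a doubling, and each difference is dDAVP minus vehicle. The difference, its standard error (SE) and 95% interval came from limma fitted to all 28225 probe sets, and a probe set was called when its Benjamini-Hochberg adjusted p over all of them was below 0.05. Array medians lay within 0.043 of each other and any pair of arrays correlated at 0.996 to 0.998 across probe sets. Aqp2, the water channel gene that vasopressin induces, was at 10.85 ± 0.072 in dDAVP cells and 6.70 ± 0.042 in vehicle cells (SD, n = 3, limma adjusted p = 1.66e-07). Of 12 listed principal cell markers 11 were measured, 6 with a positive and 5 with a negative difference, the lowest at -0.08. In limma 3 of the 11 were called, all higher with dDAVP, against 0.291% of all genes called in either direction. These were Aqp2, the ion transport regulator Fxyd4 (0.68 ± 0.069, SE, limma adjusted p = 0.0116) and the V2 receptor gene Avpr2 (0.52 ± 0.065, SE, limma adjusted p = 0.0271). Fxyd4 and Avpr2 were named after their values were seen. Of 55 listed markers of other kidney, stromal, endothelial and blood cell types 17 were measured and 0 were called. An unadjusted limma p below 0.05 was reached by 2 (11.8%, against 7.80% of all genes). They were 1 intercalated cell and 1 leukocyte marker, both higher with dDAVP. Of the 17, 6 lay at or under 3.56 and the others above it. That level, the 95th percentile over the 10 deposited probe sets for olfactory receptors, served as a rough guide to background. Some markers lay far above it, among them Csf1r of leukocytes (9.29 in dDAVP and 9.42 in vehicle cells) and Rhcg of intercalated cells (9.41 and 9.31). Lrp2 of the proximal tubule was at 8.25 and 8.35. These 3 were named after their values were seen.

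The promoters of Fzd4 and Fzd7 are shown because these were the members whose values differed most between the groups, in opposite directions. RefSeq promoter windows (build GRCm38.p6, 250 bases before to 50 after the annotated start) were searched for 4 of the 10 members, namely Fzd1, Fzd4, Fzd5 and Fzd7. Windows on 1 chromosome had been left out when members were matched. Fzd8 may therefore still have a window, while for Fzd2, Fzd3, Fzd6, Lrp5 and Lrp6 there was none to search. Both windows are given 5′ to 3′ on the plus strand, Fzd4 at chr7:89404116-89404415 and Fzd7 at chr1:59481897-59482196, and capitals mark GGGCGG, the GC box, on either strand.
Fzd4: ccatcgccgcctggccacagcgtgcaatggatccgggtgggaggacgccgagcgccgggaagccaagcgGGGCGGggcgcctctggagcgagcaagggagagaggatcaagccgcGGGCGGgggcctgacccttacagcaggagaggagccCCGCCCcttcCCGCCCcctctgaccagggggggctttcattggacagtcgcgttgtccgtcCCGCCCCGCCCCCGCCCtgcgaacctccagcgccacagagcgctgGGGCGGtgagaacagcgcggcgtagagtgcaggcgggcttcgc
Fzd7: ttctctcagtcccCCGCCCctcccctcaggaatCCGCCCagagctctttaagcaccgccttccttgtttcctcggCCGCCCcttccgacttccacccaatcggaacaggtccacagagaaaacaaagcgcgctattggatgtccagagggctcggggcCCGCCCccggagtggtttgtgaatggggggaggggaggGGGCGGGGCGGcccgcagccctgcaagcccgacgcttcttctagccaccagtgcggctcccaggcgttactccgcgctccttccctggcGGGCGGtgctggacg
The Fzd4 window held 8 GC boxes and 72.7% G and C, and the Fzd7 window held 7 and 66.7%. The Fzd5 window held more, 10 and 75.7%, and the Fzd1 window held 0 and 54%. At least 1 GC box on either strand is in 35.7% of the 32851 promoter windows of the table. How many of those windows hold as many boxes as these was not counted. The full cAMP response element TGACGTCA, found in 1.79% of windows, and its core TGACG, which the full element contains and which is found in 20.8%, matched none of the 4 members on either strand (0 each). CTTTG, the core bound by TCF/LEF factors and present on either strand in 53.9% of windows, occurred in Fzd7 (1 match, with its first base at -128 relative to the start) and Fzd1 (2 matches), and not in Fzd4 or Fzd5 (0). A match is a string of letters and not a shown binding site.

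Of the 18 member probe sets, 1 was called, higher with dDAVP, and 0 were called lower, against 0.216% called among all probe sets. The called probe set belongs to Fzd4, and 15 Frizzled and 3 co-receptor probe sets were tested. In limma, 3 member probe sets reached an unadjusted p below 0.05 (16.7%, against 7.98% of all), both of Fzd4 and the single one of Fzd7. The dDAVP and vehicle arrays did not overlap for 5 (27.8%, against 13.4% of all), 2 of them higher and 3 lower with dDAVP. The median difference over the 18 was 0.0096, with 9 positive and 9 negative, and the median over all probe sets was 0.0039. When each gene was read from its probe set with the highest mean, 0 of 10 genes were called, against 0.291% of all genes. The family did not move as one: the outer values were Fzd4 on one side and Fzd7 on the other, and the 15 probe sets of the other 8 genes lay between -0.17 and 0.16.

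**Figure D1:**
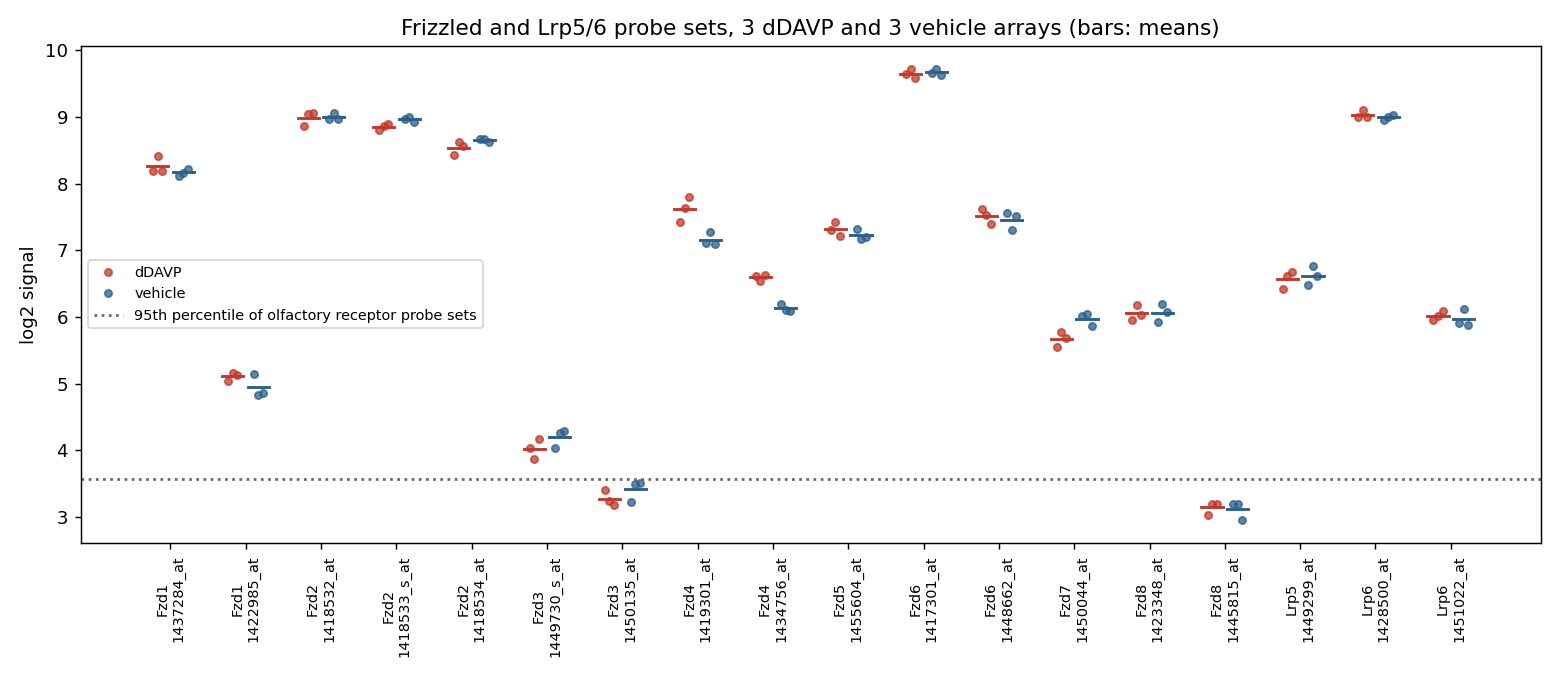
Log2 signal (y axis) of each of the 18 member probe sets in the 3 dDAVP and the 3 vehicle arrays, with bars at group means and a dotted line at 3.56, the olfactory receptor level. The groups stand visibly apart for both Fzd4 probe sets and for Fzd7, and 2 probe sets, 1 of Fzd3 and 1 of Fzd8, lie under the line.

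Fzd4 is a Wnt receptor that also binds norrin, a ligand unrelated to Wnts, together with Lrp5 and the tetraspanin Tspan12. In mouse it acts with Fzd8 in growth of the ureteric bud. Its dimmer probe set, 1434756_at, measured 6.62, 6.54 and 6.63 in dDAVP arrays 1 to 3, against 6.196, 6.101 and 6.088 in vehicle arrays 1 to 3. Every dDAVP array was above every vehicle array, and the gap between the groups was wider than the range within either. Fzd4 rose on this probe set 1.38-fold (95% interval 1.25 to 1.53), a log2 difference of 0.47 ± 0.062 (SE, limma adjusted p = 0.0399).

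Its brighter probe set, 1419301_at, measured 7.43, 7.64 and 7.80 in dDAVP arrays 1 to 3, against 7.12, 7.27 and 7.09 in vehicle arrays 1 to 3. Again the groups did not overlap, but the dDAVP arrays were more scattered, with an SD of 0.185 against 0.0488 for the dimmer probe set. The difference was almost equal, 0.46 ± 0.10 (SE, 1.38-fold, 95% interval 1.17 to 1.62), and it was not called (limma adjusted p = 0.236); scaling to the hybridisation controls made it a call (0.61, adjusted p = 0.0423). The absolute difference of each Fzd4 probe set was larger than that of 99.5% of all probe sets. With the mean of both as the gene's value and 12364 genes tested, Fzd4 stood at 7.11 in dDAVP cells and 6.64 in vehicle cells, a difference of 0.46 ± 0.063 (limma adjusted p = 0.0174). The call of 1434756_at ended when any 1 of the 6 arrays was left out (difference 0.45 to 0.50, limma adjusted p 0.106 to 0.204), with the replicate number as a block (limma adjusted p = 0.154) and with arrays scaled to the poly-A controls (0.44, adjusted p = 0.255). The difference stayed above 0 for both probe sets in each alternative run, at 0.37 to 0.61.

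**Figure D2:**
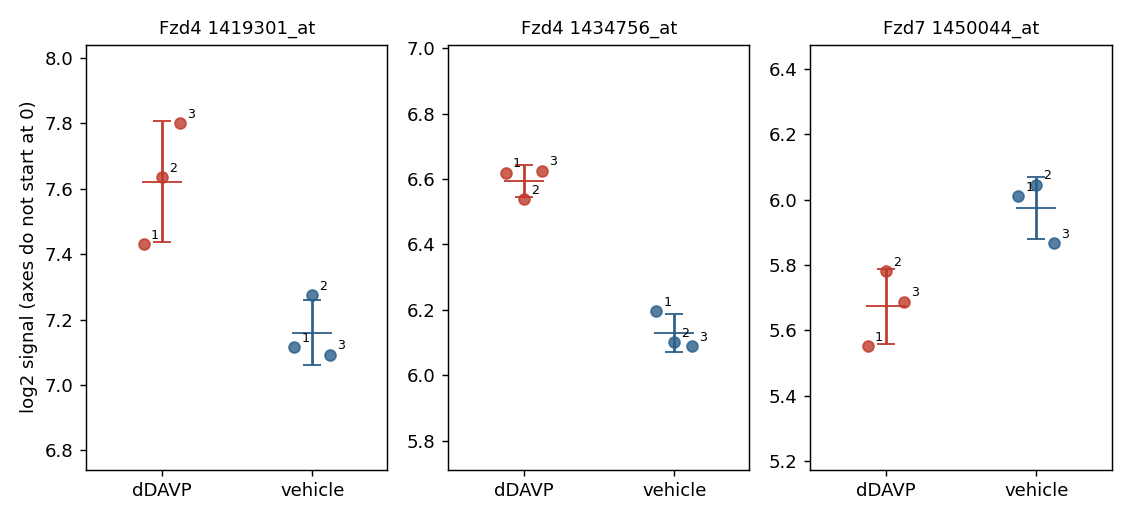
Log2 signal of both Fzd4 probe sets and the Fzd7 probe set in each dDAVP and vehicle array, numbered by replicate, with the mean and SD of 3 arrays. All panels span the same range of log2 units but start at different levels. Both Fzd4 probe sets are higher and Fzd7 is lower in each dDAVP array than in each vehicle array.

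Fzd7, Fzd1 and Fzd2 form the subgroup of Frizzleds closest to one another in sequence, and all 3 can act through beta-catenin. Fzd7 is known from stem cells of the intestine and from early embryos. Its single probe set measured 5.55, 5.78 and 5.69 in dDAVP arrays 1 to 3, against 6.01, 6.05 and 5.87 in vehicle arrays 1 to 3. The highest dDAVP array lay under the lowest vehicle array. The log2 difference was -0.30 ± 0.082 (SE), which is 81.1% of the vehicle signal (interval 0.712 to 0.925 as a fold), and it was not called (limma adjusted p = 0.356). It was below 0 in each alternative that tested it, at -0.36 to -0.15, and was called in none of them (0 of 14 over all probe sets, limma adjusted p 0.312 to 0.722). Tested among 12364 gene means, the same difference had a limma adjusted p of 0.194. The nearest to 0 was the scaling to hybridisation controls, under which the median of all probe sets moved to 0.15.

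Fzd2 had 3 probe sets. The brightest, 1418532_at, measured 8.86, 9.04 and 9.06 in dDAVP arrays and 8.97, 9.05 and 8.97 in vehicle arrays, so the groups overlapped (difference -0.01 ± 0.072, SE). The dimmer pair, 1418533_s_at and 1418534_at, differed by the same -0.11 (SE 0.058 and 0.067), with every dDAVP array under every vehicle array. For 1418533_s_at the dDAVP arrays lay at 8.803 to 8.891 and the vehicle arrays at 8.926 to 8.995. For 1418534_at the dDAVP arrays lay at 8.43 to 8.620 and the vehicle arrays at 8.623 to 8.666. None of the 3 was called (limma adjusted p 0.695 to 0.985). Whether these probe sets tell Fzd2 from Fzd1 and Fzd7 was not tested.

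Fzd1 was measured by 1437284_at, at 8.18, 8.42 and 8.19 in dDAVP arrays and 8.12, 8.16 and 8.22 in vehicle arrays, and by the dimmer 1422985_at, at 5.03, 5.16 and 5.13 in dDAVP arrays and 5.15, 4.84 and 4.86 in vehicle arrays. Groups overlapped on both. The differences were 0.10 ± 0.080 and 0.16 ± 0.094 (SE, limma adjusted p = 0.855 and 0.744). Probe sets of 1 gene thus read at unlike levels on the same arrays, which is why levels of different genes are not ranked here.

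Fzd5 and Fzd8 form another subgroup that signals through beta-catenin. Fzd5, needed in mouse for maturation of intestinal Paneth cells, measured 7.30, 7.43 and 7.22 in dDAVP arrays and 7.32, 7.16 and 7.20 in vehicle arrays (difference 0.09 ± 0.078, SE). The brighter Fzd8 probe set, 1423348_at, measured 5.96, 6.18 and 6.02 in dDAVP arrays and 5.92, 6.19 and 6.07 in vehicle arrays. Its difference, -0.0060 ± 0.090 (SE), was the closest to 0 of all members. The dimmer one, 1445815_at, lay under the olfactory receptor level with a mean of 3.13, and 3 of its 6 arrays held the same value to the last deposited digit, 3.201401.

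Fzd3 and Fzd6 are the Frizzleds best known from planar cell polarity, Fzd3 in growing axons and Fzd6 in the patterning of mouse hair. On 1417301_at Fzd6 measured 9.64, 9.73 and 9.59 in dDAVP arrays and 9.65, 9.72 and 9.63 in vehicle arrays. The groups lay on top of each other (difference -0.02 ± 0.064, SE, limma adjusted p = 0.975). Its other probe set, 1448662_at, gave 0.06 ± 0.089. Fzd3 was dim, at 4.04, 3.86 and 4.17 in dDAVP arrays and 4.03, 4.26 and 4.28 in vehicle arrays on 1449730_s_at, and its other probe set, with a mean of 3.34, lay under the olfactory receptor level. Both Fzd3 differences were negative, -0.17 ± 0.10 and -0.14 ± 0.099 (SE), with groups that overlapped and limma adjusted p of 0.758 and 0.808.

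Lrp5 and Lrp6 are related members of the LDL receptor family that are phosphorylated on their inner tail once a Wnt has bound, and then hold Axin at the membrane. Lrp6 measured 9.004, 9.107 and 8.993 in dDAVP arrays and 8.955, 9.002 and 9.025 in vehicle arrays on 1428500_at (difference 0.04 ± 0.061, SE). On the dimmer 1451022_at it was at 5.96, 6.01 and 6.09 in dDAVP arrays and 5.90, 6.11 and 5.88 in vehicle arrays (0.05 ± 0.080). Lrp5, also the partner of Fzd4 in norrin signalling and known for its effect on bone mass, was at 6.42, 6.61 and 6.68 in dDAVP arrays and 6.48, 6.77 and 6.62 in vehicle arrays (-0.05 ± 0.097). Groups overlapped on all 3 co-receptor probe sets and 0 were called (limma adjusted p 0.930 to 0.947, 0 with an unadjusted p below 0.05).

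For the 8 genes other than Fzd4 and Fzd7, all 15 intervals covered 0 and limma adjusted p ranged from 0.695 to 0.993. The same intervals bound how large a missed difference could be. As deposited, the lowest bound of the 15 intervals was 0.756 of the vehicle signal, for Fzd3, and the highest was 1.30-fold, for Fzd1. The tightest were those of Fzd6 on 1417301_at (0.892 to 1.1-fold), Fzd2 on 1418533_s_at (0.841 to 1.01-fold) and Lrp6 on 1428500_at (0.933 to 1.13-fold).

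**Figure D3:**
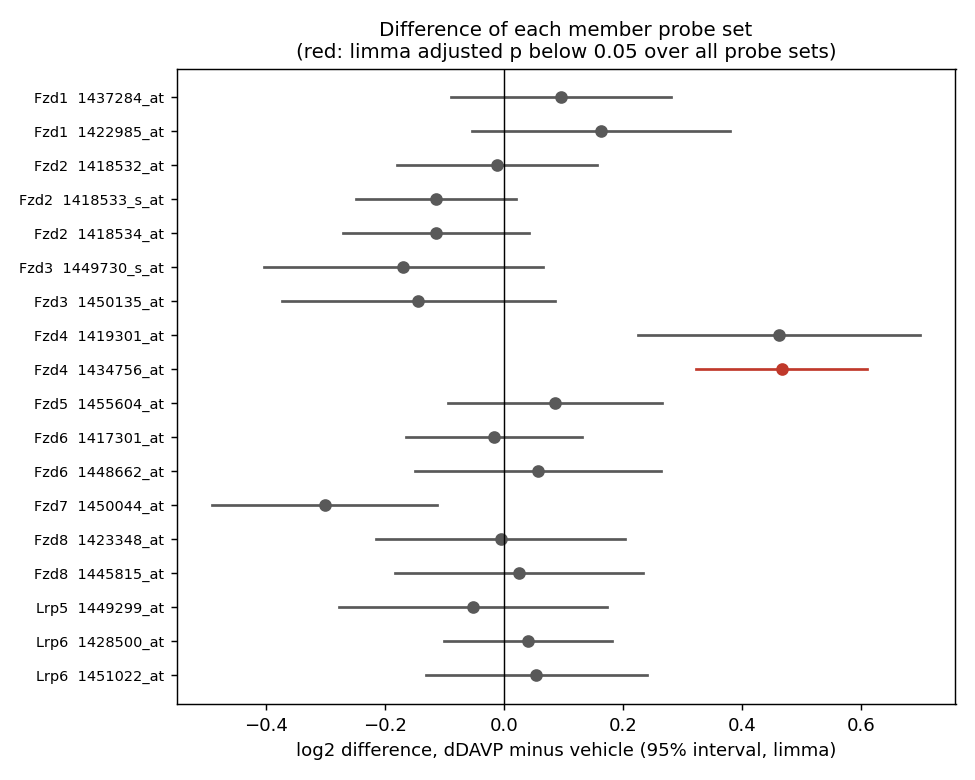
Log2 difference, dDAVP minus vehicle, of each member probe set with its 95% interval from limma, with the called probe set in red. The intervals of both Fzd4 probe sets lie above 0, that of Fzd7 lies below 0, and the other 15 cover 0.

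Around the receptors, 90 of 144 listed Wnt pathway genes were measured in 11 lists by role, each read from its brightest probe set. The lists were drawn up with earlier results of these arrays known, so shares within them are no independent evidence. In limma 0 were called higher and 0 lower, against 0.291% of all genes. Without adjustment, 9 of the 90 (10%, against 7.80% of all genes) had p below 0.05, 8 of them higher and 1 lower with dDAVP. The median difference of the 90 was -0.0024, beside 0.01 for all genes.

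Among 7 measured Wnt ligands, 3 differences were positive and 4 negative, with Wnt10a at 0.10 ± 0.058 and Wnt11 at -0.20 ± 0.086 (SE) as the extremes by moderated t. Of 4 genes for lipidation, secretion and folding, Porcn, which attaches the lipid to Wnts, was at 0.11 ± 0.062 and the Wnt carrier Wls at -0.09 ± 0.082. Of 5 antagonists 4 lay at or under the olfactory receptor level, among them the Lrp6 blocker Dkk1 (-0.20 ± 0.097), while its co-receptor Kremen1 was at 0.14 ± 0.076. In these 3 lists, 0 genes had an unadjusted limma p below 0.05.

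Receptor turnover was represented by 5 genes, with the Frizzled-removing ubiquitin ligases Znrf3 at 0.16 ± 0.088 and Rnf43 at -0.09 ± 0.15 (SE) as extremes by moderated t. Among 5 other Wnt receptors these were Ptk7 (-0.07 ± 0.076) and Fzd10 (0.05 ± 0.057), the one further Frizzled measured. Of 10 Lrp5/6 kinases and adaptors they were Atp6ap2, an adaptor between Lrp6 and the proton pump (0.11 ± 0.055), and Grb10 (-0.12 ± 0.069). In these 3 lists, 0 genes had an unadjusted limma p below 0.05.

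Inside the cell, the 7 genes of the Dishevelled list ran from Cxxc5 (-0.12 ± 0.060) to Dvl1 (0.13 ± 0.057). The 12 measured genes of the destruction complex lay between -0.10 for Gsk3b and 0.05 for Btrc, 10 of them negative. Among 13 nuclear partners the co-repressor Tle4 was at 0.26 ± 0.058 (limma unadjusted p = 0.00252, adjusted p = 0.257) and Bcl9 at -0.14 ± 0.067. Among 11 planar polarity genes the kinase Mapk9 was at 0.22 ± 0.065 (limma adjusted p = 0.410) and the cadherin Celsr1 at -0.08 ± 0.058 (SE).

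The 17 measured beta-catenin target genes held most of the low p-values. Of the 17, 7 had an unadjusted limma p below 0.05 (41.2%, against 7.80% of all genes), 6 higher and 1 lower with dDAVP. In limma 0 were called. This list too was drawn up with earlier results of these arrays known, so its share of low p-values describes the list only. The list median was 0.12, beside 0.01 for all genes, with 10 differences positive and 7 negative. Dkk1 (-0.20) and Rnf43 (-0.09) were negative and Znrf3 (0.16) was positive, each with an unadjusted limma p above 0.05. Axin2, Lgr5, Sp5, Lef1 and Tcf7 were listed but not measured. Many of the listed genes answer to other signals as well, and 5 of the 17 lay at or under the olfactory receptor level. Jun, an AP-1 factor, measured 9.61, 9.59 and 9.47 in dDAVP arrays and 10.03, 9.86 and 9.92 in vehicle arrays (-0.38 ± 0.071, limma adjusted p = 0.143). Plaur, the urokinase receptor, measured 8.15, 8.17 and 8.18 in dDAVP arrays and 7.89, 7.93 and 7.91 in vehicle arrays (0.26 ± 0.054, limma adjusted p = 0.210). Groups did not overlap for Jun, for Plaur or for the rest of the 7, on each gene's brightest probe set. Among all probe sets 13.4% had groups that did not overlap. The 7 were picked by their p-values, so the lack of overlap is no further evidence. The other 5, named because they complete the 7, were Fosl1 (0.43 ± 0.10), Ccnd1 (0.30 ± 0.095), Cd44 (0.29 ± 0.10), Myc (0.26 ± 0.069) and Sox9 (0.21 ± 0.075, SE), chosen after their values were seen. These values are of each gene's brightest probe set. A further probe set each of Ccnd1 (0.11 ± 0.096, limma unadjusted p = 0.299), Sox9 (0.14 ± 0.095, limma unadjusted p = 0.178) and Cd44 (0.27 ± 0.13, limma unadjusted p = 0.0703) had the same sign and did not reach an unadjusted p below 0.05.

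**Figure D4:**
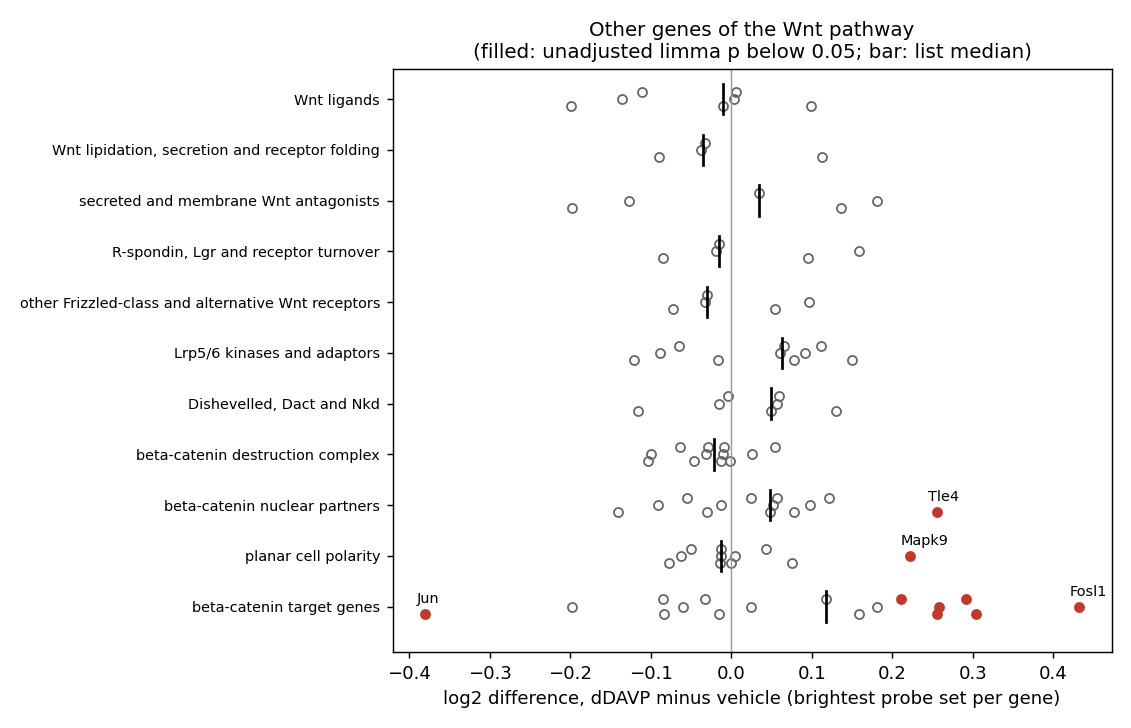
Log2 difference, dDAVP minus vehicle, of the 90 measured Wnt pathway genes by list, on each gene's brightest probe set, with a bar at each list's median. A gene on 2 lists is drawn in both, and the filled points, those with an unadjusted limma p below 0.05, lie in the target, nuclear partner and planar polarity lists.

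The direction of the Fzd4 and Fzd7 differences was the same in each processing alternative that tested them. The calls of both Fzd4 probe sets varied between alternatives, and Fzd7 was called in none (0).

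**Figure D5:**
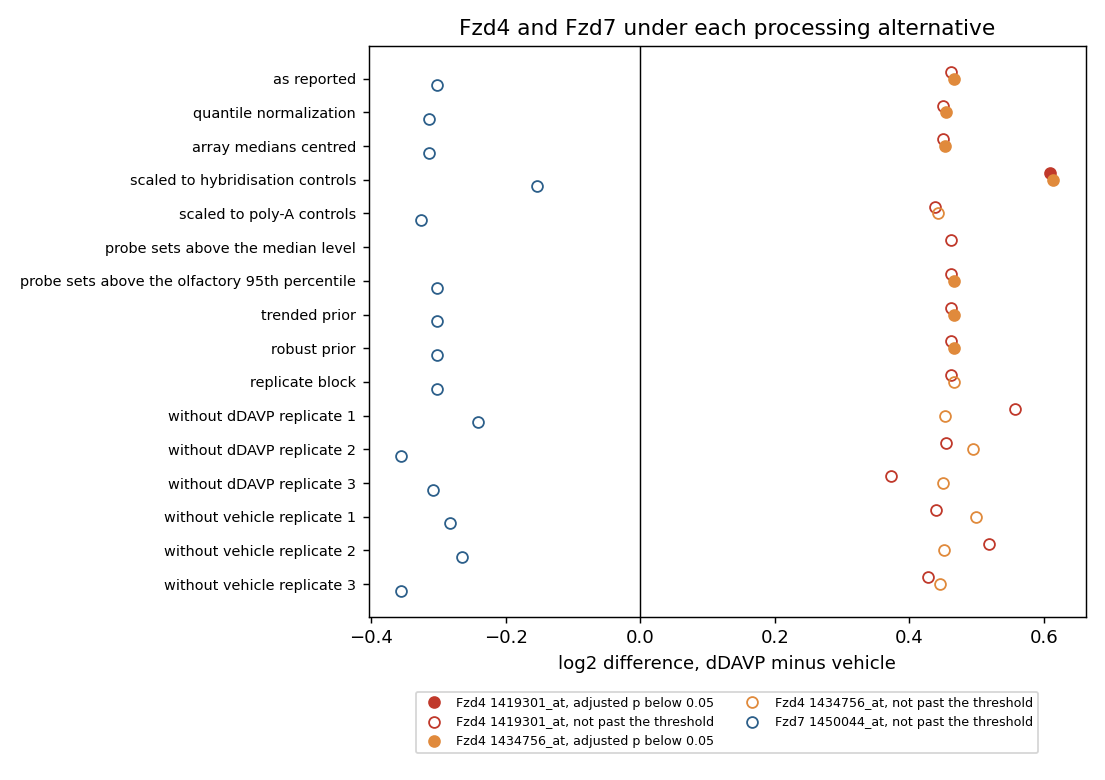
Log2 difference, dDAVP minus vehicle, of both Fzd4 probe sets and of Fzd7 as reported and under each of up to 15 alternatives, filled where the limma adjusted p was below 0.05. The Fzd4 points run from 0.37 to 0.61 and the Fzd7 points from -0.36 to -0.15, and 1434756_at is filled as reported and in 6 alternatives.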

How the data were processed

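Total RNA of 3 dDAVP and 3 vehicle cultures was extracted with Trizol, labelled with biotin and hybridised to whole-genome mouse Affymetrix arrays, per the labels' protocols. The authors deposited log2 signals, 1 per probe set and array. Expression Console 1.1, RMA and MAS5 are named in the submitters' processing notes, without their role, so which made the values is unknown. The deposited values cover a part of the array's probe sets, and the filter that chose them is not stated. A gene given here as not measured may therefore have been on the array, and the olfactory receptor probe sets are those that the filter kept. Precision is limited by the small number of arrays.

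Tests did not use the 62 control probe sets. Probe sets took their gene from the platform annotation, and those naming several genes were not used by name (611). Of 23097 with 1 symbol, 23026 matched a RefSeq table (GRCm38.p6) by Entrez ID, which changed 0 symbols. limma 3.58.1 in R 4.3.3 (lmFit, eBayes) was run on all 28225 probe sets with Benjamini-Hochberg adjustment, and the code was tested on simulated data. Motifs were searched in Python 3.11.15. Members, lists and tests were chosen with earlier results of these data known. The rule for named genes took all members, Aqp2 and, in each Wnt pathway list, called genes and those with the highest and lowest moderated t; genes named outside it are marked as chosen after their values were seen. Groups came from sample titles. Alternatives were other scalings, filters, priors, thresholds, a replicate block, gene means, and leaving out each array.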

Additional observations from a re-analysis of the deposited data

How the results depend on the processing

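As reported, 1 member probe set, 0 member genes, 0 of 90 Wnt pathway genes and 61 probe sets in all were called. With arrays scaled to the hybridisation controls, which differed by -0.148 (dDAVP minus vehicle), these were 2, 1, 2 (Fosl1 and Myc, higher) and 282, and the share of higher calls over all probe sets moved to 97.5% from 86.9%. Scaling to the poly-A controls left 0 member probe sets. With probe sets above the median level alone, 0 of 9 member probe sets, 2 pathway genes (Jun lower, Plaur higher) and 95 probe sets were called, and 1434756_at of Fzd4 was not among those tested. A trended prior gave 1 pathway gene (Jun, lower) and 146 probe sets, and averaging the probe sets of each gene gave 1 member gene (Fzd4, higher) and 1 pathway gene (Jun, lower). At an adjusted p below 0.01, 0 member probe sets and 23 probe sets were called. Leaving out 1 array gave 0 member probe sets each time and 22 (without dDAVP replicate 2) to 46 probe sets (without vehicle replicate 2). With the replicate number as a block, 0 member probe sets and 24 probe sets were called, though same-numbered arrays did not deviate together throughout (correlations of 0.196, 0.0463 and -0.0522). The cause of these shifts was not tested. Of 216 values of the other 8 member genes over 15 alternatives, 20 changed sign and 0 were called. With 3 arrays a group, the SE of a member difference was 0.0581 to 0.102, and signals near background limit what Fzd3 and the dimmer Fzd8 probe set can show.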
